A study of Mus musculus with 35 samples.

Results

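The response of polymorphonuclear myeloid-derived suppressor cells (PMN-MDSC) to immunostimulatory RNA was compared between spleen and tumor of the same kind of tumor-bearing mouse. The comparison used the 15 RNA-seq libraries sorted as PMN-MDSC out of 35 libraries in all, and took every gene that averaged 25 counts or more across them. All mice were female C57BL/6 mice, of an age of 6 to 12 weeks according to the methods of the study, with tumors of T110299 cells implanted in the pancreas. T110299 is 1 line derived from the pancreatic tumor of a genetically engineered mouse, in which a Ptf1a-Cre acts on an LSL-Trp53 fl/R172H allele among others, while the host mice themselves were wild type. On day 18 and day 20 after implantation, 4 mice received 50 µg of poly(I:C) complexed with in vivo-jetPEI (poly(I:C)c) intravenously and 4 mice did not. The labels call the latter untreated, while the treatment protocol in the labels names glucose as the control, so whether these mice were injected with glucose is not settled. Organs were taken on day 21, and CD11b+ Ly6C low Ly6G+ cells were sorted after a CD11b enrichment. This left 4 libraries from untreated spleen, 3 from treated spleen, 4 from untreated tumor and 4 from treated tumor.

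Poly(I:C) is a synthetic mimic of viral double-stranded RNA. Delivered into the cytosol it is bound by the helicase MDA5, which signals through MAVS to type I interferon (IFN). Secreted IFN binds the receptor IFNAR on the same and on other cells, and transcription factors activated by the receptor then switch on antiviral effectors, IFN-inducible GTPases and the MHC class I pathway. PMN-MDSC are neutrophil-like cells that build up in spleen and tumor of tumor-bearing hosts and can suppress T cells. In each compartment the response is the log2 ratio of treated over untreated libraries, and the difference in response is the response in tumor minus the response in spleen. A positive difference therefore stands for a gene that was, after treatment, relatively higher in tumor than it would be with the spleen's response.

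Before the responses, the sort label was checked against marker genes. The 12 PMN-MDSC markers, which include Ly6g, S100a8, S100a9 and Cxcr2, summed to 24190 to 47640 CPM (counts scaled to library size, with TMM factors) in untreated spleen and 51300 to 105200 CPM in treated spleen, but to 1457 to 5113 CPM in untreated tumor and 4376 to 13620 CPM in treated tumor. Ly6g itself, the gene of the antigen used in the sort, stood at 32.4, 61.7, 87.5 and 51.1 CPM in untreated spleen and at 0, 1.6, 8.57 and 0.904 CPM in untreated tumor, so the highest untreated tumor library stood below the lowest spleen library. The 13 macrophage markers ran the other way, with 1355 to 2728 CPM in untreated spleen, 538.7 to 972.6 CPM in treated spleen, 10550 to 13210 CPM in untreated tumor and 8348 to 18140 CPM in treated tumor. Scaled to the library total, the neutrophil receptor Cxcr2 still stood at 90.4 to 594 CPM in the 8 tumor libraries sorted as PMN-MDSC against 0 to 6.26 CPM in the 7 tumor libraries sorted as monocytic MDSC (M-MDSC). In untreated tumor, macrophage markers on this scale were higher in PMN-MDSC (10700 to 14170 CPM) than in M-MDSC libraries (3588 to 8799 CPM), without overlap. In treated tumor the ranges overlapped (8117 to 20040 CPM in PMN-MDSC and 5889 to 30710 CPM in M-MDSC libraries). The tumor libraries are called by their sort label here, and they held transcripts of both neutrophil and macrophage markers. Erythroid markers summed to 72.8 to 198.8 CPM in untreated spleen, to 0.854 to 9.52 CPM in treated spleen, where 5 of the 10 markers were at 0 in every library, and to 1.36 to 21.9 CPM in untreated and 0.886 to 6.05 CPM in treated tumor. Their part in the differences was not tested. In these bulk libraries, fewer cells of a type and less RNA per cell cannot be told apart.

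**Figure D1:**
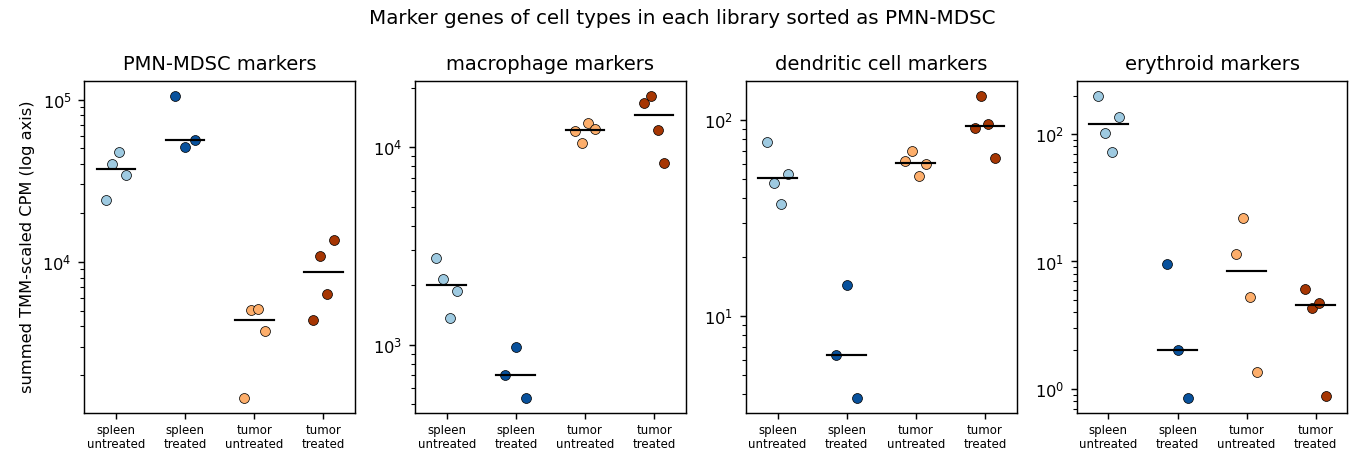
Summed TMM-scaled CPM (log axis) of the marker genes of PMN-MDSC, macrophages, dendritic cells and erythroid cells in each of the 15 libraries, with the median of each group as a line. PMN-MDSC markers were lowest in tumor, macrophage markers were highest there, and macrophage, dendritic cell and erythroid markers were lower in treated than in untreated spleen.

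Total counts were 1561674 to 3769395 per library with a median of 2502390, so that 3 counts, taken as the floor of detection, came to 0.726 to 2.38 CPM. The shallowest library and the smallest TMM factors (0.753 to 0.857) were those of treated spleen, the group of 3.

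Of 8047 genes tested, 282 (3.5%) had a response that differed between tumor and spleen (edgeR quasi-likelihood F-test of the interaction, Benjamini-Hochberg adjusted p under 0.05, against 1330 genes at an unadjusted p under 0.05). The difference was positive for 255 genes (3.17%) and negative for 27 (0.336%). Most of these genes moved in spleen. Of the 255 genes, 243 fell in spleen and had no called response in tumor, and of the 27 genes, 21 rose in spleen with no called response in tumor. In spleen the median response was -2.7 for the 255 genes and 1.83 for the 27 genes, while in tumor these medians were 0.03 and 0.19. These directions are in part fixed by the choice of genes, since the difference holds both responses. Before treatment, 206 of the 255 genes (80.8%) and 23 of the 27 genes (85.2%) stood higher in tumor than in spleen, against 51.3% of all genes tested. The untreated levels enter the difference itself, so these shares are a description and do not set the 255 genes apart from the 27.

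Taken on its own, the treatment moved more genes in spleen than in tumor. In spleen 619 genes rose (7.69%) and 1036 fell (12.9%), whereas in tumor 157 rose (1.95%) and 36 fell (0.447%). Both compartments called 154 genes, 152 of them in the same direction. Across the 8047 genes, the spleen and tumor responses had a Pearson r of 0.548, a description over genes, which are not independent replicates. The spread of the responses over genes was larger in spleen (SD 1.14) than in tumor (SD 0.586). The number of differing genes depended on single libraries, and stood at 72 without treated spleen replicate 3 and at 448 without treated spleen replicate 1, with replicate numbers that serve only as names. A call held in every fit with 1 library left out for 62 of the 282 genes.

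**Figure D2:**
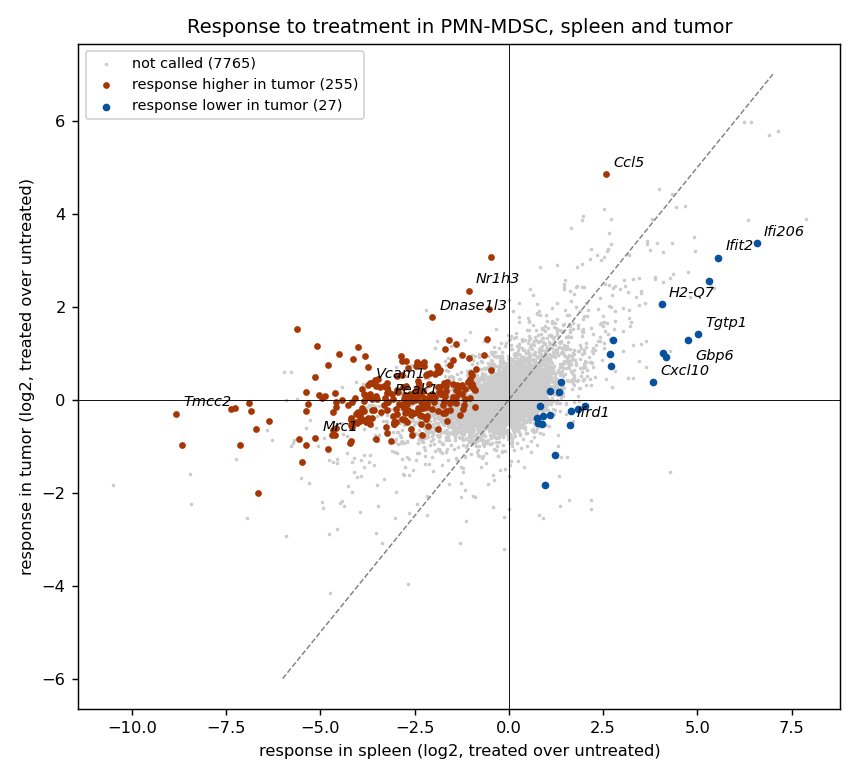
Response of each of 8047 genes in spleen (x axis) against tumor (y axis), both as log2 of treated over untreated, with the line of equal response dashed. The 255 genes with a response higher in tumor lie mostly at negative values in spleen and near 0 in tumor, and the 27 with a response lower in tumor lie at positive values in spleen below the dashed line.

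The 27 genes with the lower response in tumor included 5 members of the lists of antiviral effectors, IFN-inducible GTPases and the MHC class I pathway. These were Ifit2 and Parp12 (of 43 antiviral effectors tested), Gbp6 and Tgtp1 (of 16 GTPases), and H2-Q7 (of 22 members of the MHC class I pathway). Over all genes tested, 0.336% were called in this direction and 3.5% in either. Also among the 27 were the chemokine Cxcl10 and the DNA-binding HIN-200 family member Ifi206. The interferon-stimulated response element, a short sequence known from the promoters of IFN-induced genes, holds a pair of GAAA letters with 2 bases between them (GAAANNGAAA on either strand). RefSeq promoters, here the 300 bases from 250 before to 50 after an annotated start on GRCm38, were searched for it. The motif was found in 5 of the 22 of the 27 genes that have a promoter in the table (22.7%), in 17 of 33 antiviral effectors (51.5%), in 9 of 10 IFN-inducible GTPases (90%), in 4 of 199 genes with the higher response in tumor (2.01%) and in 4.49% of the 6080 tested genes with a promoter. Stretches of 60 bases with the match in capitals are shown, in the direction of the gene, for 3 genes that rose more in spleen and for Trim30a and Slfn8, which rose in both compartments.
Cxcl10, chr5:92349068-92349127 (minus strand): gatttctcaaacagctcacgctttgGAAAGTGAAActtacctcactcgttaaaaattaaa
Ifi206, chr1:173491324-173491383 (minus strand): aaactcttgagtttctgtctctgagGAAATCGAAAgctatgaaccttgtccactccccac
Tgtp1, chr11:48992289-48992348 (minus strand): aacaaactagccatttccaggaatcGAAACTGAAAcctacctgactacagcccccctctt
Trim30a, chr7:104465195-104465254 (minus strand): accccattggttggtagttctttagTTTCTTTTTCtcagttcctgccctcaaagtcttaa
Slfn8, chr11:83020824-83020883 (minus strand): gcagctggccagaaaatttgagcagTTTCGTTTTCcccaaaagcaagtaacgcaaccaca
The match lies on the gene's own strand in the first 3 and on the other strand in the last pair. It describes these letters only.

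Cxcl10 (chr5:92346638-92348889, minus strand, GRCm38), which encodes a ligand of CXCR3, a chemokine receptor of activated T cells, was the 1 chemokine of this set. Its level was 2.74, 6.53, 2.45 and 1.32 CPM in untreated spleen and 19, 59.1 and 48.7 CPM in treated spleen, without overlap. In tumor it was already 124, 105, 74.5 and 67.8 CPM in untreated and 80.3, 110.3, 79 and 210.4 CPM in treated libraries, so that the groups overlapped there. The response was 3.83 ± 0.51 (SE) in spleen and 0.37 ± 0.38 in tumor on the log2 scale, a difference of -3.46 (95% interval -4.82 to -2.09, edgeR adjusted p = 0.011). Untreated tumor stood above untreated spleen by 4.94 (log2, edgeR adjusted p = 2.68e-06).

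Gbp6, a guanylate-binding protein of IFN-dependent defence against intracellular microbes, rose from 2.49, 0.594, 0.70 and 0.66 to 14.3, 48.6 and 40.6 CPM in spleen. In tumor the values were 13.8, 20.8, 10.8 and 11.7 CPM before and 39.7, 29.3, 24.9 and 44.3 CPM after treatment, again without overlap, but this response of 1.28 did not pass the test (edgeR adjusted p = 0.0925). The difference in response was -3.48 (-4.82 to -2.14, edgeR adjusted p = 0.0106). Tgtp1, a T cell-specific GTPase of the immunity-related family, went from 0.249, 4.75, 0.35 and 1.98 to 21.4, 44 and 81.6 CPM in spleen and from 23.1, 33.1, 17.9 and 16.3 to 32.6, 39.5, 71.7 and 96.1 CPM in tumor, where the groups overlapped. Its difference was -3.62 ± 0.85 (edgeR adjusted p = 0.0289), with the call kept in 10 of 15 fits that left out 1 library and an adjusted p of up to 0.0944 (treated spleen replicate 3 left out). Both genes have close copies, Gbp10 and Tgtp2, between which the counting can split reads. Of the 16 IFN-inducible GTPases tested, 12 rose in spleen and 1 in tumor, 2 differed (the pair above), and 13 had a difference below 0. The shares over all genes tested were 7.69% up in spleen, 1.95% up in tumor and 3.5% differing, 0.336% with the lower response in tumor. The median response of the list was 2.01 in spleen and 0.69 in tumor, with a median difference of -1.27 against 0.11 over all genes tested.

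**Figure D3:**
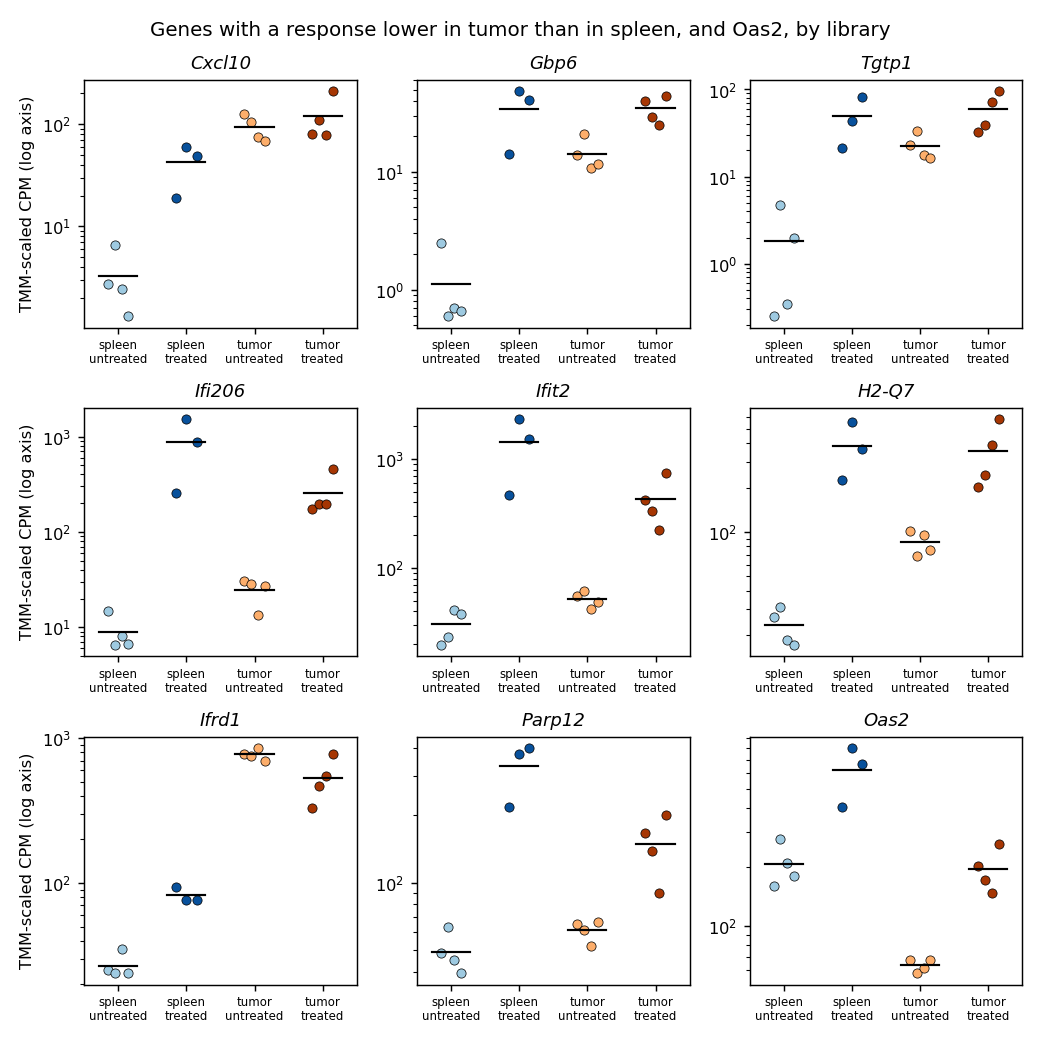
TMM-scaled CPM of 9 genes in each library (log axis), with the mean of each group as a line. In Cxcl10, Gbp6, Tgtp1, Ifi206, Ifit2, H2-Q7 and Parp12 the step from untreated to treated is larger in spleen than in tumor, Ifrd1 rose in spleen and did not pass the test in tumor, and Oas2 took a similar step in both.

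The antiviral effectors rose in both compartments. Of 43 members tested, 41 rose in spleen and 38 in tumor, none fell in either, and 2 differed, both with the larger rise in spleen. Over all genes tested, 7.69% rose in spleen, 1.95% rose in tumor and 3.5% differed. The 2 of 43 that differed are near the share of all genes in either direction, which is mostly genes with the higher response in tumor (3.17%). In the direction of these 2 genes the share was 0.336%. The median response of the antiviral effectors was 2.77 in spleen and 2.28 in tumor, and 36 of 43 differences were below 0, with a median of -0.65. Ifit2, which binds viral RNA and blocks translation, rose from 19.7, 23.2, 41.3 and 37.9 to 470.2, 2312 and 1521 CPM in spleen and from 55.4, 61.4, 42.1 and 48.3 to 420.1, 335, 223 and 741 CPM in tumor. No treated library overlapped the untreated ones in either compartment, and treated spleen replicate 1 was the lowest of its group. The responses were 5.55 and 3.05, and their difference -2.5 ± 0.63 (edgeR adjusted p = 0.039) was called in 4 of 15 fits with 1 library left out, with an adjusted p of up to 0.101 (treated spleen replicate 2 left out). Parp12, an ADP-ribosyltransferase with antiviral activity, rose by 2.77 in spleen and 1.28 in tumor, and the difference of -1.48 (edgeR adjusted p = 0.0335) held in 4 of 15 such fits, with an adjusted p of up to 0.104 (treated spleen replicate 3 left out). The call of Ifit2 was also lost with the filter at 10 counts in every library (0.0756), and that of Parp12 with the filter at 10 counts in every library (0.0817), the edgeR adjusted p being in parentheses.

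The other 41 antiviral effectors did not pass the test for a difference. Of the 43 intervals of the difference, 15 lay wholly below 0, those of Ifit2 and Parp12 among them, none lay wholly above 0 and 28 held 0, while 1330 of the 8047 genes tested had an unadjusted p under 0.05 in either direction. The 5 members with intervals closest to 0 are given next, and they do not stand for the list. Oas2, an enzyme that makes oligoadenylates in response to double-stranded RNA, was 159.9, 279, 209 and 180.1 CPM in untreated and 404, 804 and 664 CPM in treated spleen, and 67.5, 57.7, 61.5 and 67.8 CPM in untreated and 203, 172, 147 and 262 CPM in treated tumor. The responses of 1.59 and 1.62 left a difference of 0.03 with a 95% interval of -0.70 to 0.76. The sign of so small a value changed with other tools and libraries. The intervals were -0.84 to 0.40 for Adar (the RNA-editing adenosine deaminase), -0.95 to 0.66 for Trim30a, -1.11 to 0.35 for Ifi35 and -1.14 to 0.55 for Slfn8. Only 3 of the 43 intervals lay wholly between -1 and 1, and their median width was 1.96 log2 units, so a difference of 1 log2 unit lay within the interval of most members. Among sensors and signal carriers of the IFN pathway, 9 of 26 rose and 2 fell in spleen and 6 rose in tumor (7.69%, 12.9% and 1.95% over all genes tested), with a median difference of -0.03. The 1 member that differed, beside 3.5% of all genes tested, was Irf8, a transcription factor of the monocyte and dendritic cell lineages, which fell in spleen from 71.5, 41.6, 17.5 and 24.1 to 10.3, 6.01 and 5.13 CPM and was 148, 127, 125 and 126 CPM in untreated and 176, 184, 98.8 and 60.2 CPM in treated tumor (difference 2.48 ± 0.65, edgeR adjusted p = 0.0473, called in 4 of 15 fits with 1 library left out, up to an adjusted p of 0.158 without treated spleen replicate 3). The call of Irf8 was also lost, at the adjusted p in parentheses, with limma voom (0.0634), RLE scaling (0.0582) and the filter at 10 counts in every library (0.10).

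Ifi206, Phf11c and Gm4070, which are in none of the lists, were also among the 27. Ifi206 rose from 14.7, 6.53, 8.05 and 6.6 to 258, 1511 and 869 CPM in spleen and from 30.6, 28.3, 13.4 and 27.1 to 172, 198, 195 and 452 CPM in tumor. It thus rose in both compartments, by 6.57 and 3.36, with a difference of -3.21 (edgeR adjusted p = 0.0207, lost without treated spleen replicate 2 and without treated spleen replicate 3, up to 0.0613 in the second). Phf11c, of the PHD finger gene family Phf11, rose by 4.1 in spleen and had a response of 1.01 in tumor (difference -3.09, edgeR adjusted p = 0.0198). That call was lost without treated spleen replicate 3 (edgeR adjusted p = 0.0691) and without untreated tumor replicate 2. Gm4070, a large GTPase gene related to Gvin1, was 282, 15.4, 172 and 143 CPM in untreated and 828, 4739 and 2751 CPM in treated spleen and 497, 452, 348 and 410.2 CPM in untreated and 773, 681, 745 and 1034 CPM in treated tumor. Its difference of -3.25 had an edgeR adjusted p of 0.0464, called in 4 of 15 fits with 1 library left out and up to 0.117 without treated spleen replicate 2, and lost with upper-quartile scaling (0.0555), all genes left unfiltered (0.218) and the filter at 10 counts in every library (0.0993). Ifi206, Phf11c and Gm4070 all belong to families of close copies, between which counts are uncertain.

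The MHC class I pathway rose in spleen for 17 of 22 members and fell for 2, and rose in tumor for 9 and fell for none. Over all genes tested, 7.69% rose and 12.9% fell in spleen, 1.95% rose and 0.447% fell in tumor, and 3.5% differed. The median response of the pathway was 1.02 in spleen and 0.58 in tumor. H2-Q7, a class Ib heavy chain with the near-identical neighbour H2-Q6, was the 1 of 22 that differed (-2.0 ± 0.49, edgeR adjusted p = 0.0335). It rose from 26.4, 30.9, 18.6 and 17.2 to 227, 555 and 367 CPM in spleen and from 101, 68.9, 94.7 and 75.9 to 202, 243, 389.9 and 579 CPM in tumor, with no overlap in either. The call held in 4 of 15 fits that left out 1 library, and the adjusted p reached 0.0876 without treated spleen replicate 2. It was also lost with the filter at 10 counts in every library (0.0743).

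Genes outside the IFN lists were also called for a larger rise in spleen. Ifrd1, a transcriptional coregulator with a known part in neutrophil function, had the smallest p among the 27. It rose from 24.9, 23.7, 35 and 23.8 to 93.6, 76.6 and 76.5 CPM in spleen. Untreated tumor already held 782, 753, 858 and 699 CPM and treated tumor 331, 469.9, 549 and 784 CPM, and these groups overlapped. The difference was -2.14 ± 0.34 (edgeR adjusted p = 0.00687), with the call kept in each of the 15 fits. Casp8, the initiator caspase of death receptors, rose by 1.08 in spleen with a response of 0.19 in tumor (difference -0.89, edgeR adjusted p = 0.0464, called in 3 of 15 fits, up to 0.107 without treated spleen replicate 3, and lost with upper-quartile scaling (0.0825), all genes left unfiltered (0.29) and the filter at 10 counts in every library (0.144)). Differences with small errors were those of Tnfaip8, a regulator of apoptosis (-0.94 ± 0.20, edgeR adjusted p = 0.0201), and of Fam117b (-1.14 ± 0.26, edgeR adjusted p = 0.0235), with adjusted p-values of 0.0559 without treated spleen replicate 3 and 0.0535 without untreated tumor replicate 3. Tnfaip8 was also lost with all genes left unfiltered (0.199) and the filter at 10 counts in every library (0.0634), and Fam117b with all genes left unfiltered (0.0636) and the filter at 10 counts in every library (0.064). Tagap, a GTPase-activating protein of activated T cells, and Glis3, a zinc finger transcription factor, differed by -1.88 and -2.02 (edgeR adjusted p = 0.024 and 0.0269), held in 13 and 9 of 15 fits and reached up to 0.0884 and 0.0821, both without treated spleen replicate 3. Tagap was also lost without untreated tumor replicate 3.

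The larger set, with a positive difference, was led by genes that fell in spleen and had no called response in tumor. Peak1 (chr9:56201126-56418067, minus strand), which encodes a pseudokinase of the cytoskeleton, had the smallest p of all genes. Its level was 125, 143, 135 and 169.6 CPM in untreated spleen and 13.5, 23.5 and 8.54 CPM in treated spleen, without overlap. In tumor it was 102, 105, 83.1 and 88.5 CPM in untreated and 102, 108, 73.9 and 81.9 CPM in treated libraries, which overlapped. The response was -3.23 ± 0.29 in spleen and -0.04 ± 0.23 in tumor, and the difference 3.19 (2.42 to 3.95, edgeR adjusted p = 0.00149). Pkd1, the polycystin-1 gene, followed the same course with 57.3, 55.2, 43.4 and 55.4 CPM in untreated spleen, 13.5, 8.01 and 10.7 CPM in treated spleen, 72.7, 48.1, 69.3 and 70.9 CPM in untreated tumor and 49.3, 53.1, 55.8 and 46.5 CPM in treated tumor (difference 1.97 ± 0.29, edgeR adjusted p = 0.00675). Fam102b (2.63), the lysophosphatidic acid acyltransferase Agpat3 (3.36), the tetraspanin Tspan3 (3.56) and the Polycomb-related gene L3mbtl2 (3.31) had differences with edgeR adjusted p-values of 0.00675, 0.00687, 0.00675 and 0.00675. The last pair rested on 1 or 2 counts in each treated spleen library. The calls of these 6 genes were kept in every fit with 1 library left out.

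Some of the largest fitted differences, 7.07 to 8.52, belonged to genes at 0 in all 3 treated spleen libraries, and these values depend on the prior count and are no bounds. Against a floor of 3 counts in each library (1.72 CPM on average), Tmcc2, which encodes a coiled-coil membrane protein, was at least 12.8-fold lower in treated than in untreated spleen. Its levels were 38.4, 13.7, 11.9 and 24.4 CPM in untreated spleen, 5.19, 5.88, 6.34 and 7.23 CPM in untreated tumor and 7.01, 2.47, 3.01 and 7.53 CPM in treated tumor. The bound was 11.3-fold for Gm47283, annotated on the Y chromosome (chrY:90784738-90816464) although the mice were female, so that the identity of its reads is uncertain. For Fgfr1, a fibroblast growth factor receptor, it was 4.81-fold, and for Fam78a 4.27-fold. The calls of Tmcc2 held in all 15 fits, those of Fam78a in 14 (up to 0.060 without treated spleen replicate 3), of Gm47283 in 8 (up to 0.115 without treated spleen replicate 3) and of Fgfr1 in 5 (edgeR adjusted p up to 0.124 without treated spleen replicate 3). Gm47283 was also lost with limma voom (0.0511), and Fgfr1 with limma voom (0.0835) and the M-MDSC libraries in the fit (0.0965).

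**Figure D4:**
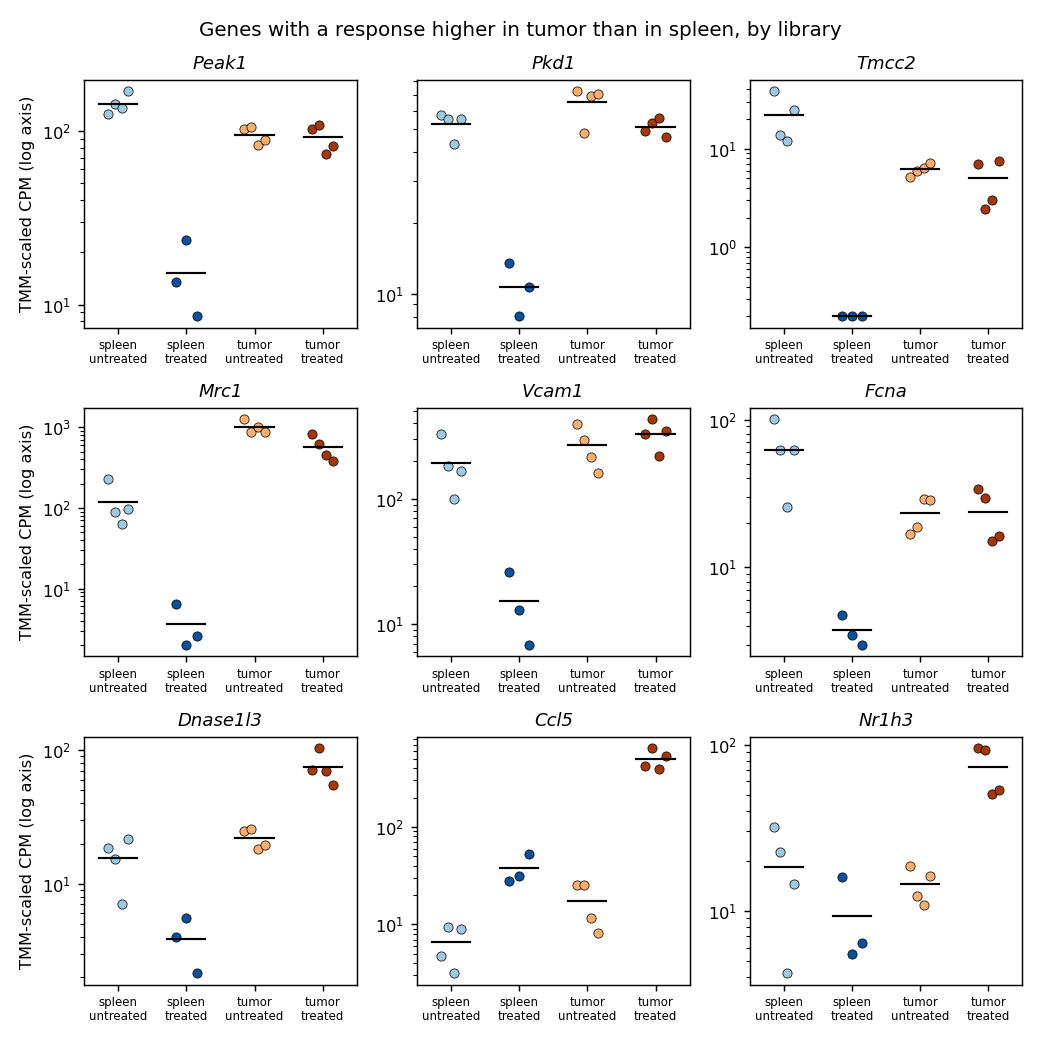
TMM-scaled CPM of 9 genes in each library (log axis), with the mean of each group as a line and values of 0 drawn at 0.2 CPM. Peak1, Pkd1, Tmcc2, Mrc1, Vcam1 and Fcna were low in the 3 treated spleen libraries, while Dnase1l3, Ccl5 and Nr1h3 were highest in the 4 treated tumor libraries.

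Of all lists, that of the macrophage markers held the most called members. Of the 13 macrophage markers, 11 differed, all with the higher response in tumor, and the same 11 fell in spleen while none moved in tumor by the test. Among all genes tested, 3.17% differed with the higher response in tumor and 12.9% fell in spleen. The other members of the macrophage list were Cd5l (3.19, edgeR adjusted p = 0.0857) and Slc40a1 (1.33, edgeR adjusted p = 0.13). The list had a median response of -2.47 in spleen and 0.31 in tumor, and a median difference of 3.19. The mannose receptor Mrc1 stood at 227, 90.2, 63 and 97.3 CPM in untreated and 6.34, 2.0 and 2.56 CPM in treated spleen, and at 1249.9, 872, 1012 and 871 CPM in untreated and 814, 616, 450.4 and 379 CPM in treated tumor. Every group was apart from its counterpart, the response in tumor of -0.83 did not pass the test (edgeR adjusted p = 0.292), and the difference was 4.31 (2.95 to 5.68, edgeR adjusted p = 0.00675). Vcam1, an adhesion molecule of splenic red pulp macrophages and of endothelium, went from 326, 183, 100.5 and 168 to 26.2, 13 and 6.84 CPM in spleen and was 396, 296, 215 and 160.4 CPM before and 328, 429.7, 219 and 345 CPM after treatment in tumor. Its difference was 4.03 ± 0.62 (edgeR adjusted p = 0.00687). The complement genes C1qa, C1qb and C1qc (3.26, 2.74 and 3.19), the haemoglobin scavenger receptor Cd163 (5.13), the efferocytosis receptors Mertk (3.47) and Axl (3.5), Adgre1, the gene of F4/80 (2.64), and Spic, the regulator of red pulp macrophages (2.59), differed as well, with edgeR adjusted p-values of 0.00687 (C1qc) to 0.0219 (Cd163) over these 8. Without treated spleen replicate 3 the calls of C1qb, Cd163, Axl and Spic were lost, with adjusted p-values of up to 0.0719, and that of Cd163 was lost without treated spleen replicate 2 as well. Fcna, a ficolin of the lectin pathway of complement made by macrophages, was 100.1, 62.3, 25.6 and 62 CPM in untreated and 4.76, 3.5 and 2.99 CPM in treated spleen, and 16.7, 18.7, 29.1 and 28.5 CPM in untreated and 34.1, 29.3, 15 and 16.4 CPM in treated tumor (difference 4.13, edgeR adjusted p = 0.00687). Peak1, Mrc1, Vcam1 and Fcna kept their calls in each fit with 1 library left out. The summed level of all 13 macrophage markers was lower in treated than in untreated spleen, as given above, and the part of macrophage transcripts in the differences of other genes was not tested.

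Other cell type markers that could be tested were few. Of 9 monocyte markers, 2 differed (beside 3.5% of all genes tested), among them Klf4 (4.73, edgeR adjusted p = 0.024), a transcription factor of the monocyte lineage. In spleen 1 monocyte marker rose and 5 fell, beside 7.69% and 12.9% of all genes tested. The summed level of the monocyte markers was 616 to 1225 CPM in untreated and 931.8 to 1590.0 CPM in treated spleen, and 2026 to 2890.0 CPM in untreated and 1647 to 2735 CPM in treated tumor. The calls of Klf4 and Ccr3 were lost without treated spleen replicate 3 (edgeR adjusted p up to 0.0953), and that of Klf4 also without treated spleen replicate 2 and treated tumor replicate 1. The eosinophil chemokine receptor Ccr3 differed by 3.53 (edgeR adjusted p = 0.0198), while Siglecf had 1.24 (edgeR adjusted p = 0.485). The T cell coreceptor Cd4, which some myeloid cells also express, differed by 3.06 (edgeR adjusted p = 0.0283, called in 8 of 15 fits, up to 0.102 without treated spleen replicate 3), with T cell markers at 15.1 to 22.6 CPM in untreated and 3.42 to 13.5 CPM in treated spleen and at 28 to 42.7 CPM in untreated and 20.8 to 59.3 CPM in treated tumor. Eosinophil markers summed to 69.7 to 121.1 CPM in untreated and 17.9 to 37.3 CPM in treated spleen, and to 91.8 to 217.3 CPM in untreated and 46.3 to 165.7 CPM in treated tumor. Siglecf and Ccr3 carried these sums, and the other 4 of the 6 markers, all at low levels, had a higher mean in treated than in untreated libraries of both organs. Dendritic cell markers summed to 37.5 to 78.0 CPM in untreated spleen and 3.85 to 14.5 CPM in treated spleen, with Flt3, Xcr1, Siglech and Ccr9 at 0 in all treated spleen libraries, and to 52.2 to 69.5 CPM in untreated and 64.2 to 133.1 CPM in treated tumor. In treated tumor 8 of the 10 markers were lower than in untreated tumor, and without Dnase1l3 the sum was 33.9 to 43.8 CPM in untreated and 8.86 to 29 CPM in treated tumor, and 30.5 to 59.3 CPM in untreated and 1.71 to 9.01 CPM in treated spleen. Their part in the differences was not tested.

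Sterol and lipid handling held 5 called members out of 20, all with the higher response in tumor, beside 3.17% of all genes tested. The median difference of the list was 0.04, and 10 of the 20 differences lay below 0. Nr1h3, the oxysterol receptor LXR alpha, rose in tumor from 18.5, 12.3, 10.8 and 16.3 to 95.5, 92.4, 50.7 and 53.1 CPM and was 32.1, 22.6, 4.2 and 14.5 CPM in untreated and 15.9, 5.51 and 6.41 CPM in treated spleen, which overlapped. The response in tumor was 2.34 ± 0.47 and in spleen -1.07 ± 0.55 (edgeR adjusted p = 0.188), a difference of 3.41 (edgeR adjusted p = 0.0197, lost without treated spleen replicate 2 and, with 0.0738, without treated spleen replicate 3). Its target Abcg1, a cholesterol exporter, had 219.7, 277, 254 and 260.0 CPM in untreated and 160.2, 220.2 and 163 CPM in treated spleen, and 111, 171, 164 and 173 CPM in untreated and 222, 262, 262 and 219.7 CPM in treated tumor. Neither response of Abcg1 passed its own test, and their difference of 1.12 did (edgeR adjusted p = 0.028, lost without treated spleen replicate 3, untreated tumor replicate 3 or treated tumor replicate 2, up to 0.0919, and with all genes left unfiltered (0.0644)). The other 3 fell in spleen, with differences of 5.54 for the phospholipid transfer protein Pltp, 4.12 for lipoprotein lipase (Lpl) and 2.46 for apolipoprotein E (Apoe), which is also a macrophage marker. The value of Pltp rested on 4, 0 and 0 counts in the treated spleen libraries, and was 9.59 without treated spleen replicate 1. Their edgeR adjusted p-values were 0.0193, 0.0478 and 0.028, held in 13, 5 and 6 of 15 fits and rising to 0.0799, 0.159 and 0.0837 without treated spleen replicate 3. Pltp was also lost with all genes left unfiltered (0.0734), Lpl with limma voom (0.17), RLE scaling (0.0561) and all genes left unfiltered (0.202), and Apoe with the filter at 10 counts in every library (0.0608). Apoe reached 7486, 6832, 9227 and 8774 CPM in untreated tumor against 550.2, 436, 192 and 307 CPM in untreated spleen.

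A few genes rose in tumor and not in spleen, or more in tumor. Ccl5 (chr11:83525778-83530518, minus strand), the chemokine RANTES that attracts T cells and monocytes, was the one gene with a positive difference that rose in both. It went from 4.73, 9.5, 3.15 and 8.91 to 27.8, 31.5 and 53.4 CPM in spleen and from 25.4, 25.1, 11.6 and 8.13 to 418, 647, 394 and 537 CPM in tumor, without overlap in either. The responses were 2.57 ± 0.43 and 4.85 ± 0.41, with a difference of 2.28 (1.06 to 3.5, edgeR adjusted p = 0.0382) that was called in 6 of 15 fits and reached an adjusted p of 0.0896 without untreated spleen replicate 4. It was also lost with the M-MDSC libraries in the fit (0.0915). Cxcl10 and Ccl5 thus differed in opposite directions within the list of 24 chemokines and cytokines, where no other member was called, beside 3.5% of all genes tested. Dnase1l3 (chr14:7964533-7994573, minus strand), a secreted nuclease that digests chromatin, listed here as a dendritic cell marker, fell in spleen from 18.7, 15.4, 7.0 and 21.8 to 3.96, 5.51 and 2.14 CPM and rose in tumor from 24.8, 25.6, 18.3 and 19.4 to 71.1, 104, 70.0 and 55.4 CPM. Both responses passed their test (-2.04 and 1.78), and the difference of 3.82 (2.7 to 4.93, edgeR adjusted p = 0.00675) was kept in all 15 fits. H2-M2, a class I-like gene, was the only other gene called in opposite directions. It rose in tumor from 23.7, 40.6, 41.7 and 22.1 to 72.1, 89.9, 134 and 73.5 CPM, but its spleen levels were near the floor, at 4.48, 2.37, 0.70 and 1.65 CPM in untreated and 0 in all treated libraries, so that the fall there is at least 1.34-fold (difference called in 14 of 15 fits, up to an edgeR adjusted p of 0.0603 without treated spleen replicate 3, and lost with the M-MDSC libraries in the fit (0.0656)).

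In the list of the unfolded protein response and heat shock, 10 of 25 members fell in spleen, none rose there, 1 rose in tumor, and 23 of 25 differences were above 0, with a median of 0.91 against 0.11 over all genes. Of all genes tested, 12.9% fell and 7.69% rose in spleen, 1.95% rose in tumor and 3.5% differed, beside 2 of 25 differing in the list. Bag3, a co-chaperone of HSP70, and the inducible HSP70 gene Hspa1b differed by 2.48 and 2.66 (edgeR adjusted p = 0.0289 and 0.0461). Hspa1b fell from 44.1, 24.3, 7.35 and 14.8 to 3.17, 2.5 and 5.98 CPM in spleen and was far higher in tumor, at 1623, 1393, 718 and 1342 CPM in untreated and 1397, 1755, 1060.2 and 1472 CPM in treated libraries. Reads of Hspa1b can be split with its near copy Hspa1a. Tumor was prepared with a dissociation kit and spleen with a strainer and red blood cell lysis, so organ and preparation cannot be told apart in the levels of these genes. The calls held in 6 and 3 of 15 fits, with adjusted p-values of up to 0.0773 (treated spleen replicate 3 left out) and 0.114 (treated spleen replicate 2 left out). Bag3 was also lost with limma voom (0.191), and Hspa1b with limma voom (0.205), RLE scaling (0.057) and the M-MDSC libraries in the fit (0.191). In the list of NF-kB and immediate early genes, 1 of 31 members was called, beside 3.5% of all genes tested. This was Atf3, a stress-induced transcription factor, which fell from 44.8, 44.5, 24.5 and 38.9 to 2.38, 9.01 and 3.84 CPM in spleen and was 469.7, 329, 419.6 and 491 CPM in untreated and 309, 309, 397 and 268 CPM in treated tumor. Its difference of 2.43 ± 0.44 (edgeR adjusted p = 0.0103) was kept in each of the 15 fits.

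In the lists of metabolism and survival, 1 to 3 members each were called, to be read beside 3.5% of all genes tested. In the list of glycolysis and hypoxia, P4ha1, a collagen prolyl hydroxylase subunit, and Pdk1, the kinase that holds back pyruvate dehydrogenase, were 2 of 36 (1.95 and 1.61, edgeR adjusted p = 0.0198 and 0.0201, both called in 14 of 15 fits, with 0.0719 and 0.0833 without treated spleen replicate 3). Catalase (Cat) was 1 of 23 redox genes (1.64, edgeR adjusted p = 0.0327, 7 of 15 fits, up to 0.0767 without treated tumor replicate 1). Cycs, cytochrome c, was 12.5, 14.8, 10.2 and 15.5 CPM in untreated and 9.52, 5.51 and 10.3 CPM in treated spleen and 34.6, 21.9, 19.4 and 15.8 CPM in untreated and 41.6, 40.2, 41.2 and 55.4 CPM in treated tumor, with a difference of 1.61 (edgeR adjusted p = 0.0381, 3 of 15 fits, up to 0.0923 without treated spleen replicate 2) as the 1 called gene of 62 in oxidative phosphorylation. Neither of its responses passed its own test (-0.65 in spleen, edgeR adjusted p = 0.161, and 0.97 in tumor, edgeR adjusted p = 0.0587), and the call was also lost with the filter at 10 counts in every library (0.0744). In apoptosis and survival, the pro-apoptotic Bax (1.54, edgeR adjusted p = 0.0272) and the survival gene Bcl2a1d (1.55, edgeR adjusted p = 0.0481), which has close copies, differed in the direction opposite to Casp8. They held in 10 and 3 of 15 fits and reached 0.0719 (treated spleen replicate 3 left out) and 0.12 (treated spleen replicate 3 left out). Bax was also lost with limma voom (0.0937) and all genes left unfiltered (0.108), and Bcl2a1d with limma voom (0.312), RLE scaling (0.0644) and the M-MDSC libraries in the fit (0.0777). The T cell and myeloid checkpoint receptor TIM-3 (Havcr2) was the 1 called member of 21 immunosuppressive mediators and checkpoints. It fell from 37.4, 14.2, 18.6 and 24.7 to 8.72, 9.51 and 7.69 CPM in spleen and was 34, 51.3, 45.1 and 33.4 CPM in untreated and 50.8, 66.1, 39.5 and 50.5 CPM in treated tumor (difference 1.82, edgeR adjusted p = 0.0272, 9 of 15 fits, up to 0.0927 without treated spleen replicate 3, and lost with the filter at 10 counts in every library (0.0634)).

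MHC class II genes fell in both compartments. All 8 members tested fell in spleen and 5 of them in tumor, beside 12.9% and 0.447% of all genes tested. The median responses of the 8 were -4.26 and -2.10. H2-Ab1, the beta chain of I-A, was 786, 275, 179.9 and 221 CPM in untreated and 15.9, 12 and 8.12 CPM in treated spleen, and 1519, 1152, 1253 and 1149 CPM in untreated and 325, 439.6, 267 and 65.5 CPM in treated tumor. All 8 differences were above 0, with a median of 2.20, and 6 of the 8 intervals lay wholly above 0, but none passed the threshold after adjustment. That of H2-Ab1 came closest (2.75, 1.09 to 4.41, edgeR adjusted p = 0.0658). It was called with DESeq2 (adjusted p = 0.0114) and limma voom (adjusted p = 0.0486), and by edgeR without treated tumor replicate 4 (adjusted p = 0.0141) and without untreated spleen replicate 3 (adjusted p = 0.0427). Class II genes are carried by macrophages, dendritic cells and B cells, whose marker sums were lower in treated than in untreated spleen (B cell markers at 117.4 to 214 against 183.8 to 389.5 CPM, with an overlap, and in tumor 23.9 to 52.5 CPM in treated against 53.7 to 113.8 CPM in untreated libraries). In treated tumor, 2 of 13 macrophage markers and 8 of 10 dendritic cell markers were lower than in untreated tumor, and the macrophage sums given above overlapped. The part of these cells in the fall was not tested.

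No member of the 2 lists of neutrophil genes passed the test for a difference, with 3.5% called over all genes tested, so that such a count in lists of this size does not set them apart. Of 31 genes of mature neutrophils, 10 rose in spleen and 7 in tumor (7.69% and 1.95% over all genes tested), with median responses of 0.77 and 0.79. Of 19 secondary and tertiary granule genes, 4 rose in spleen and 1 in tumor, with median responses of 1.08 and 1.19. The intervals of the difference had a median width of 2.55 and 2.94 log2 units. S100a8, a subunit of calprotectin, was 1043, 3444, 3277 and 2493 CPM in untreated and 9574, 4665 and 6900.5 CPM in treated spleen, and 72.1, 402, 369 and 203 CPM in untreated and 338, 1006, 419.9 and 1481 CPM in treated tumor. Its partner S100a9 had a difference of 0.31 (-1.15 to 1.78), S100a8 of 0.17 (-1.51 to 1.86) and Ly6g of 0.59 (-1.73 to 2.91), intervals that reach beyond 1 log2 unit in either direction, and the sign of each turned without single libraries. Ly6g rose in spleen by 2.61 (edgeR adjusted p = 0.0154), and its response of 3.2 in tumor did not pass (edgeR adjusted p = 0.0612). Stfa2l1, a stefin of neutrophils, came nearest to a difference in its list (1.99, edgeR adjusted p = 0.229), as did Ceacam10 in the granule list (-1.11, edgeR adjusted p = 0.339). The lists of cell cycle (35 tested), ribosomal protein (73), histone (27) and primary granule genes (2) held no member called by edgeR. Their nearest were Pcna (1.08, edgeR adjusted p = 0.0528), Rpl8 (0.85, edgeR adjusted p = 0.133), Hist1h2ac (1.81, edgeR adjusted p = 0.231) and Ctsc (0.83, edgeR adjusted p = 0.533). Pcna, the sliding clamp of DNA replication, was called with DESeq2 (adjusted p = 0.0152), limma voom (0.0119), upper-quartile scaling (0.0431) and the M-MDSC libraries in the fit (0.0132), and also by edgeR without treated spleen replicate 1 (0.0161) and without treated tumor replicate 4 (0.0462). Rpl8, a protein of the large ribosomal subunit, was called with limma voom (adjusted p = 0.0195) and by edgeR without treated spleen replicate 1 (adjusted p = 0.0449).

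**Figure D5:**
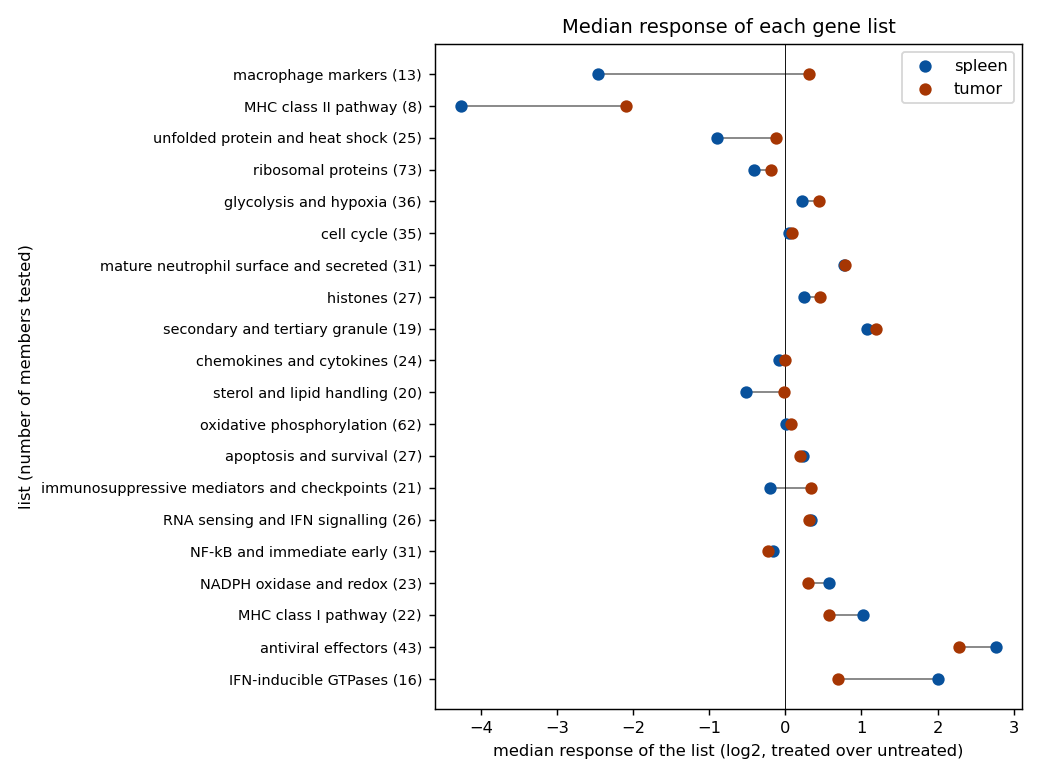
Median response of each gene list in spleen and tumor (log2, treated over untreated), for lists with at least 8 members tested and the 13 macrophage markers, ordered by the median difference. The IFN lists lie to the right in both compartments with the larger value in spleen, the MHC class II list lies to the left in both, macrophage markers lie to the left in spleen alone, and the neutrophil lists lie at similar values in both.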

How the data were processed

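RNA-seq libraries were prepared from sorted cells with a stranded pico-input kit that removes ribosomal cDNA and amplifies by PCR without molecular identifiers. According to the methods of the study, the authors aligned the reads with ContextMap and BWA to mm10 and counted them per gene and strand with featureCounts on Gencode annotation, and the submitters' notes name Subread 1.4.6-p3 and GRCm38. The deposited values are raw counts per gene, with no normalization. Columns of the count table were matched to samples by group. Their names hold a running number, which may follow the order of the mice but does not state the mouse number of the sample names, and no match was made by order, so replicate numbers are names only.

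All 15 PMN-MDSC libraries entered 1 fit with 4 groups in edgeR 4.0.16 (R 4.3.3): a mean count of 25 or more per gene, TMM scaling, robust quasi-likelihood dispersions and Benjamini-Hochberg adjustment over 8047 genes at 0.05. Levels are CPM of TMM-scaled library sizes. The 95% intervals and standard errors come from the F statistic. P-values reflect the spread between libraries of separate mice, and spleen and tumor libraries of 1 mouse were treated as independent. Counting floors of 3 counts cover counting error only. On simulated data with 50 genes changed at each size of the difference between tumor and spleen responses, edgeR recovered 12%, 78%, 92% and 98% at log2 differences of 1, 2, 3 and 4, with 8 false calls among 8047 genes. Gene names and coordinates come from GENCODE on GRCm38, which matched 53274 of 53379 identifiers. Alternatives were DESeq2 1.42.0, limma 3.58.1 with voom and sample weights, 2 other scalings, 2 other filters, a non-robust fit, a fit with the M-MDSC libraries (1 of these, with 10 counts in all, was left out), a stricter threshold and leaving out each library.

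The comparison, the gene lists and the tests were chosen with earlier results of these data known. Named genes are the 10 with the smallest adjusted p and the 5 with the largest difference in each direction, the called members of each function list (or else the member with the smallest p), 5 antiviral effectors with intervals closest to 0, and Ly6g, S100a8 and S100a9. Genes whose call 1 library decides, also part of the rule, were 220 of 282 and are given as counts. Macrophage, monocyte, T cell and eosinophil markers, Cd300e, Ptpn22 and Marco were named after their values were seen. Of the called monocyte markers, 1 is not reported here by name.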

Additional observations from a re-analysis of the deposited data

Results flagged for a closer look

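The response differed between tumor and spleen for 282 genes by the interaction test, and for Dnase1l3 (difference 3.82) and H2-M2 (difference 7.15, with treated spleen at 0) it had opposite directions in both compartments, each of which passed its test.

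Of 186 groups of 4 libraries of named genes, 18 held 1 library far from the other 3 by Dixon's test, which flags about 1 in 20 groups by chance. Treated tumor replicate 4 stood apart for Ifi206 (452 CPM), Slfn8 (330 CPM), Phf11c (16.4 CPM), Cycs (55.4 CPM), Fgfr1 (40.7 CPM) and Tspan3 (16.8 CPM). Untreated spleen replicate 1 stood apart for L3mbtl2 (8.47 CPM), Gbp6 (2.49 CPM), Gm47283 (46.8 CPM), Lpl (59.8 CPM) and H2-Ab1 (786 CPM), and untreated spleen replicate 3 for Pkd1 (43.4 CPM) and Ifrd1 (35.0 CPM). In untreated tumor, the libraries apart were replicate 1 for Abcg1 (111 CPM) and Irf8 (148 CPM), replicate 2 for Pkd1 (48.1 CPM) and replicate 4 for Fam78a (15.8 CPM) and Fam117b (70.0 CPM).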

How the results depend on the processing

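Against 282 differing genes (255 higher and 27 lower in tumor), the counts were 501 (396 and 105) with DESeq2, 627 (410 and 217) with limma voom and sample weights, 676 (583 and 93) with no filter on low counts, 45 (41 and 4) with at least 10 counts in every library and 476 (403 and 73) in a fit with the M-MDSC libraries. The share of calls higher in tumor was 90.4%, against 79% with DESeq2 and 65.4% with limma voom. With an adjusted p under 0.001 and a log2 difference of at least 1, edgeR called 0, 0 and 0 genes, against 1330 at an unadjusted p under 0.05. The filter at 10 counts tests 91 of the 282 genes. Of the 282, DESeq2 called 280 and limma voom 201, and none changed sign in any setting tried. Without 1 library each, the counts ran from 72 to 448 in all, 68 to 383 higher and 4 to 65 lower. The total moved by over 1.5 times without treated spleen replicate 1 (448) or 3 (72), untreated tumor replicate 2 (181), 3 (161) or 4 (180), and treated tumor replicate 1 (155) or 2 (156).

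The response in spleen (1655 genes) came to 935 with at least 10 counts in every library, 250 at the stricter threshold and 985 (treated spleen replicate 3) to 1836 (treated spleen replicate 1) without 1 library. That in tumor (193 genes) came to 415 with DESeq2, 869 with limma voom, 547 with no filter, 303 with the M-MDSC libraries, 23 at the stricter threshold and 100 to 246 without 1 library each, moving by over 1.5 times without untreated tumor replicate 1 (100), 2 (127), 3 (103) or 4 (128) and treated tumor replicate 4 (109). The cause was not tested. The median difference of all genes was 0.11 with TMM, 0.04 with RLE and 0.19 with upper-quartile scaling. That of the antiviral effectors stayed between -0.93 and -0.54 without 1 library each.

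Of the alternatives for single named genes, 1122 kept side and direction, 244 lost the call, 12 gained it (Pcna, H2-Ab1 and Rpl8, at the values given with these genes) and 17 changed sign, all of the last in genes that were not called. The difference of Oas2 was -0.043 with DESeq2, -0.17 with limma voom, -0.042 with RLE scaling, -0.0078 with the M-MDSC libraries and -0.2057 to 0.2515 without 1 library. Without 1 library, Slfn8 ran from -0.5973 to 0.1053, Trim30a from -0.4398 to 0.1721, Ly6g from -0.5471 to 2.39, S100a9 from -0.0623 to 0.6021 and S100a8 from -0.3029 to 0.4585. From the labels alone, no paired analysis was possible because the column names of the count table do not state the mouse numbers of the samples. The running numbers may follow the mice, and a pairing taken from column order could have been fitted, but it was not made. Whether a paired fit would change these results was not tested. The interaction fit therefore takes no account of mice that gave both a spleen and a tumor library.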

Other observations

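Besides Nr1h3, 3 other genes rose in tumor and passed no test in spleen, with a called difference. They were Cd300e, an activating receptor of monocytes (difference 3.56, edgeR adjusted p = 0.0154), Ptpn22, a phosphatase of immune receptor signalling (1.88, edgeR adjusted p = 0.0155), and Marco, a scavenger receptor of macrophages (2.48, edgeR adjusted p = 0.0267). These calls held in 14, 14 and 10 of 15 fits with 1 library left out, and the adjusted p-values reached 0.0538 (treated spleen replicate 3 left out), 0.0588 (treated spleen replicate 3 left out) and 0.0824 (treated spleen replicate 3 left out).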
